A study of Rattus norvegicus with 6 samples.

Results

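The genes described here are 8 genes of neutrophils, namely the calcium-binding genes S100a8 and S100a9, the resistin-like gene Retnlg, the receptor gene Csf3r and the granule genes Mpo, Ngp, Camp and Ltf. They were taken by name: each non-control probe whose gene name in the array files is one of these symbols was a member, which gave 8 probes, 1 per gene and each spotted 2 times per array, among 30367 non-control probes. All 8 genes were present on the array, and 5 of them, S100a8, S100a9, Retnlg, Ngp and Camp, were among the 17536 genes bright enough to be tested. There are 3 whole-heart samples of animals given AACO and 3 whole-heart samples of control animals given double-distilled water. The letters of AACO, a Chinese medicine formula, are not explained in the labels. AACO was dosed at 0.386 µg/g each day for 8 weeks, and hearts were taken 24 h after the last dose. Animals of both groups had TAC, which commonly stands for transverse aortic constriction, surgery that overloads the left ventricle, so every control heart here is an operated heart. No heart without the operation was analysed here, and it is not stated in the sources used here whether blood was washed out of the hearts. The labels name the species as Rattus norvegicus, although the series text speaks of mice, and the probes carry positions on the rat build rn4.

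Neutrophils are short-lived white cells that leave the blood for injured tissue and kill microbes with stored proteins. Their granules are made in sequence as the cells mature in the bone marrow: primary granules carry myeloperoxidase (Mpo), and later granules carry lactoferrin (Ltf), cathelicidin (Camp) and, in mice, neutrophilic granule protein (Ngp). S100a8 and S100a9 form the calprotectin complex, which makes up much of the cytosol of neutrophils, is also made by monocytes, and acts on other cells as an alarm signal once released. Csf3r encodes the receptor for granulocyte colony-stimulating factor, the growth factor of this lineage. In whole-tissue RNA such transcripts can come from blood held in the vessels as well as from cells in the muscle, and a smaller number of such cells and less RNA per cell cannot be told apart.

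What each value reports is the binding of labelled RNA to a 60-base probe. The probes of the genes that carry the comparison, and that of Csf3r, which stood apart from the others, are printed here because a reader can match them to any later annotation. They are given in lower case, 5' to 3', as in the array files.
S100a8 probe: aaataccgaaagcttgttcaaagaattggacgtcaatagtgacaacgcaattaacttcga
S100a9 probe: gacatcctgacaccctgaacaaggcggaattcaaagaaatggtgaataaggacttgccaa
Retnlg probe: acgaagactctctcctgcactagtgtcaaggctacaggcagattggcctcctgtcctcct
Ngp probe: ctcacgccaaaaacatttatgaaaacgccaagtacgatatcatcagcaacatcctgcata
Csf3r probe: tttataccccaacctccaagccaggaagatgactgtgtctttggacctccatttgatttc
The S100a8 probe lies at chr2:182962328-182962387 on the plus strand of rn4, and the S100a9 probe at chr2:182987647-182987706 on the minus strand, with 25.3 kb between them. The Retnlg probe lies at chr11:53175296-53175355 on the minus strand, the Csf3r probe at chr5:145393491-145393550 on the plus strand and the Mpo probe at chr10:76094059-76094118 on the plus strand. Chromosome 8 holds the other 3 granule genes within 1.22 Mb, with Camp at chr8:114214914-114214973 on the minus strand, Ngp at chr8:114798288-114798347 and Ltf at chr8:115438446-115438505, both on the plus strand. Which exon or other part of its gene each probe covers is not given in the array files. The G and C content of the 8 probes ran from 36.7% in S100a8 to 55% in Retnlg.

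All AACO arrays were on 1 slide with 1 scan time and all control arrays on another slide with another scan time, so slide, scan and treatment cannot be told apart in any result here. The share of non-control spots that the scanner software marked well above background was 71.8% ± 0.78 on the AACO arrays and 67.5% ± 1.4 on the control arrays (SD, n = 3 each), and the median signal was 212 to 261 against 143 to 204. Levels are therefore given on a log2 scale relative to the 75th percentile of each array, or as a percent of that percentile. All 8 cardiomyocyte markers were tested and 0 of them passed, and those of smallest p were Actc1 (-0.23, adjusted p = 0.292) and Myl2 (-0.13, adjusted p = 0.484), both genes of the contractile apparatus. Of 4 atrial transcripts, Myl7, Sln and Nppa differed widely between arrays. Myl7, the atrial myosin light chain gene, stood at 4.83, 6.26 and -1.06 on AACO replicates 1, 2 and 3, against -2.31, -2.91 and -1.51 on control replicates 1, 2 and 3. Sln, an atrial regulator of the calcium pump, stood at 1.39, 3.85 and -0.41 with AACO, against -1.71, -0.42 and -0.59 in control. AACO replicate 3 thus lay close to the control arrays in Myl7 and Sln, while AACO replicates 1 and 2 lay far above them. Nppa did not follow them and was lowest on AACO replicate 1. It stood at 2.80, 5.49 and 5.86 with AACO, against 4.95, 5.25 and 6.99 in control. Myl4 varied little, at 6.76 to 6.83 with AACO, against 6.63 to 6.94 in control. The summed level of all 4, with Myl4 and Nppa, overlapped between the groups, at 15194% to 24436% of the 75th percentile with AACO, against 14470% to 22709% in control. In control the means of Myl4 and Nppa were 6.80 and 5.73, against -2.25 for Myl7 and -0.90 for Sln. The sum therefore says little of Myl7 and Sln.

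The comparison of AACO with control asks whether transcripts of neutrophils differ in overloaded hearts after treatment with the formula. All 5 genes tested were lower with AACO, by 1.64-fold (Camp) to 3.03-fold (Retnlg), and 1 of them, Retnlg, fell at an adjusted p under 0.05. S100a8 and S100a9 were 3.004-fold and 2.66-fold lower and did not pass. The 3 genes that were too dim to be tested, Mpo, Ltf and Csf3r, were at or near the background. Over all genes, 867 fell, which is 4.94% of those tested, and 1108 rose, which is 6.32%. The share of rises among all calls was 56.1% and changed with the processing: 45.7% when the percentile was taken over probe means, 34.7% after normexp, 35.6% without a filter on dim probes and 95.9% without scaling. The median log2 fold change of the 5 genes was -1.41, against 0.04 over all genes tested. For 4 of the 5 every AACO array lay below every control array once scaled, as it did for 15.8% of all genes. For 0 of the 5 every AACO array lay above, as it did for 21.5% of all genes. Before scaling, S100a8, S100a9 and Camp overlapped between the groups, and Retnlg did not. The 8 genes and the 5 tested were picked with earlier results of these arrays known, so these counts describe the genes and give no independent support for a direction.

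**Figure D1:**
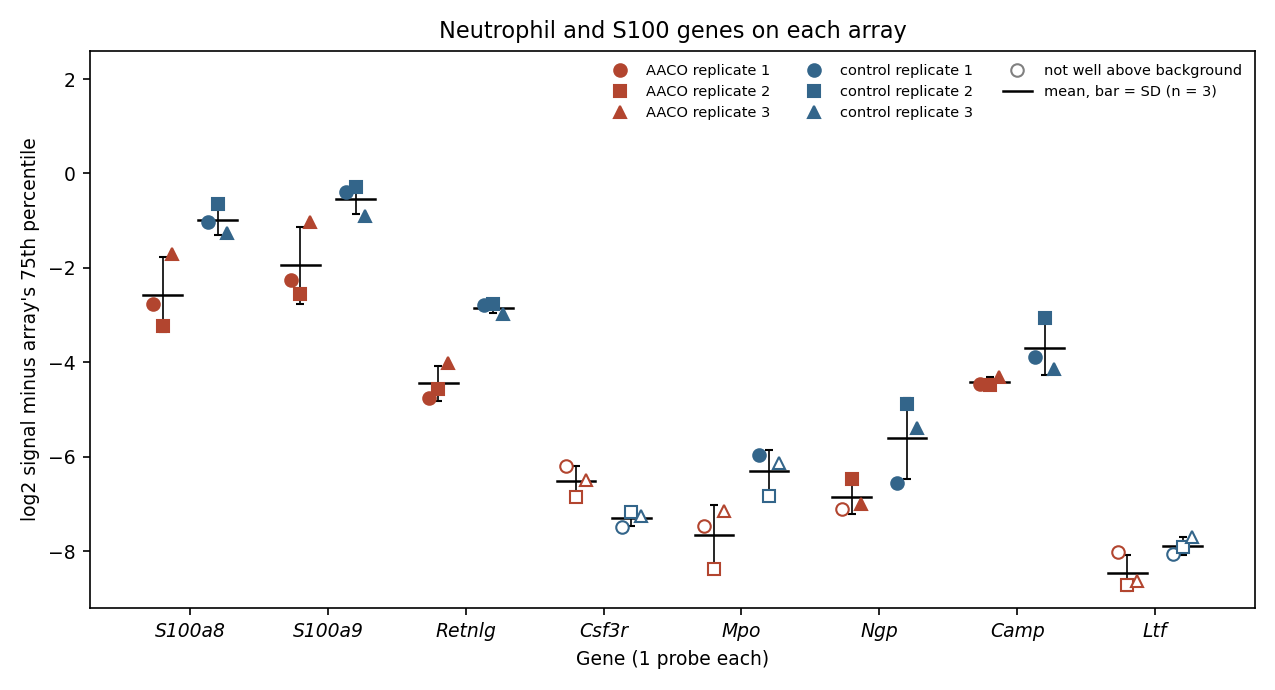
Level of each gene on each array as log2 signal minus the array's 75th percentile, AACO arrays left of control arrays. Open symbols mark probes that were not well above background on that array, and bars give the mean and SD of 3 arrays. The AACO arrays lie below the control arrays for S100a8, S100a9, Retnlg, Camp and Mpo, and above them for Csf3r. The symbols of Csf3r are all open, and those of Mpo are open except on control replicate 1.

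S100a8 encodes the smaller chain of calprotectin. Its level was 14.7%, 10.6% and 30.8% of the 75th percentile on AACO replicates 1, 2 and 3, against 49.2%, 63.7% and 41.5% on control replicates 1, 2 and 3. Once scaled, all AACO arrays lay below all control arrays, and AACO replicate 3 was much nearer to the control arrays than the other 2. Before scaling the groups overlapped, with signals of 229 to 660 with AACO, against 557 to 864 in control. On the log2 scale the mean was -2.57 ± 0.79 with AACO and -0.98 ± 0.31 in control (SD, n = 3 each), a log2 fold change of -1.59 ± 0.40 (SE, limma adjusted p = 0.0524, 95% confidence interval -2.54 to -0.63). The change was -1.49 without AACO replicate 1 (adjusted p = 0.163) and -1.25 without AACO replicate 2 (adjusted p = 0.139), and neither passed, while without AACO replicate 3 it was -2.02 and passed (adjusted p = 0.0178). It also passed with normexp background correction (-1.38, adjusted p = 0.0239), with no scaling (-1.10, adjusted p = 0.0104, where the median of all genes was 0.52) and among the genes above background on all 6 arrays (adjusted p = 0.0385).

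S100a9 encodes the larger chain and followed S100a8 from array to array. Its level was 21.0%, 17.0% and 49.4% of the 75th percentile on AACO replicates 1, 2 and 3, against 75.7%, 81.5% and 53.7% on control replicates 1, 2 and 3. AACO replicate 3 and control replicate 3 were close, 0.12 apart on the log2 scale once scaled, and the other AACO arrays were well below both. Unscaled signals overlapped between the groups, at 355 to 1058 with AACO, against 721 to 1331 in control. The mean was -1.94 ± 0.82 with AACO and -0.53 ± 0.32 in control (SD, n = 3 each), a log2 fold change of -1.41 ± 0.41 (SE, limma adjusted p = 0.0751, interval -2.40 to -0.43). It was -1.26 without AACO replicate 1 (adjusted p = 0.215) and -1.10 without AACO replicate 2 (adjusted p = 0.192). Without AACO replicate 3 it was -1.87 and passed (adjusted p = 0.0178), as it did with normexp (-1.28, adjusted p = 0.0368) and with no scaling (-0.93, adjusted p = 0.0323). AACO replicate 3 lay above the mean of the other AACO arrays by 1.31 for S100a8 and 1.39 for S100a9. The 2 spots of the S100a9 probe on an array differed by 0.13 on the log2 scale at most, and those of S100a8 by up to 0.81 (control replicate 1).

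Retnlg, which encodes a secreted resistin-like protein that rodents make in bone marrow and neutrophils, was the gene that fell. Its level was 3.71%, 4.26% and 6.15% of the 75th percentile on AACO replicates 1, 2 and 3, against 14.5%, 14.7% and 12.7% on control replicates 1, 2 and 3. The control arrays were nearly alike, and the highest AACO array was 1.05 below the lowest control array on the log2 scale. The mean was -4.44 ± 0.38 with AACO and -2.84 ± 0.12 in control (SD, n = 3 each), a log2 fold change of -1.60 ± 0.20 (SE, limma adjusted p = 0.0104, interval -2.08 to -1.12). Without AACO replicate 2 the change was -1.54 and did not pass (adjusted p = 0.0548). It passed in each of the other 5 fits that left out 1 array. Ordered by size of fall among the 17536 genes, Retnlg was number 82, S100a8 number 83, S100a9 number 130, Ngp number 216 and Camp number 928.

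Camp encodes cathelicidin, a peptide that kills bacteria. Its level was 4.57%, 4.49% and 5.07% of the 75th percentile on AACO replicates 1, 2 and 3, against 6.73%, 12.0% and 5.66% on control replicates 1, 2 and 3. The AACO arrays were alike, and control replicate 2 stood above the other control arrays. The log2 fold change was -0.71 ± 0.27 (SE, limma adjusted p = 0.141, interval -1.37 to -0.05), and -0.39 without control replicate 2 (adjusted p = 0.14). The groups were 0.16 apart on the log2 scale once scaled. Before scaling they overlapped, with signals of 77.3 to 108 with AACO, against 76.0 to 145 in control.

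Ngp encodes a protein of the later granules known from mouse neutrophils. Its level was 0.728%, 1.14% and 0.778% of the 75th percentile on AACO replicates 1, 2 and 3, against 1.06%, 3.41% and 2.38% on control replicates 1, 2 and 3, and the groups overlapped. The log2 fold change was -1.25 ± 0.43 (SE, limma adjusted p = 0.113, interval -2.29 to -0.20), and it depended on single arrays and on the background correction. It was -1.72 and passed without control replicate 1 (adjusted p = 0.0235), and was -0.88 without control replicate 2 (adjusted p = 0.214), -0.58 with normexp (adjusted p = 0.0885) and -0.76 with no scaling (adjusted p = 0.0515). This probe was the least precise of the 5: its 2 spots on an array differed by a median of 1.38 and by up to 3.45 on the log2 scale, against a median of 0.04 for S100a9. It was well above background in 2 of 6 spots with AACO and 4 of 6 in control.

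The other 3 genes did not reach the filter on dim probes, which needed 3 or more of the 6 arrays to be well above background. Mpo, the enzyme that makes hypochlorous acid in primary granules, was well above background on 0 of 3 AACO arrays and on 1 of 3 control arrays. Its signals were 9.54, 6.54 and 15.1 on AACO replicates 1, 2 and 3, against 28.1, 10.67 and 19.1 on control replicates 1, 2 and 3. These signals overlapped before scaling and did not after it, and since 1 array alone, control replicate 1, was well above background, no fold is given. Ltf, which encodes the iron-binding protein of the later granules, was well above background on 0 of 6 arrays, with signals of 5.11 to 6.51 with AACO, against 5.05 to 6.57 in control, and nothing can be said of its direction.

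Csf3r was also well above background on 0 of 6 arrays, yet its signals lay the other way. They were 23.0, 18.7 and 23.8 on AACO replicates 1, 2 and 3, against 9.74, 8.37 and 8.84 on control replicates 1, 2 and 3. All AACO values were above all control values, before scaling and after it. Once scaled, the same held for 21.5% of the genes tested. The 2 spots of the Csf3r probe differed by up to 1.49 on the log2 scale (control replicate 1). In all, 6 of 6 spots with AACO, against 4 of 6 in control, passed the scanner software's weaker test for a signal over background. Since neither group had an array well above background, no fold is given and the direction is uncertain.

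**Figure D2:**
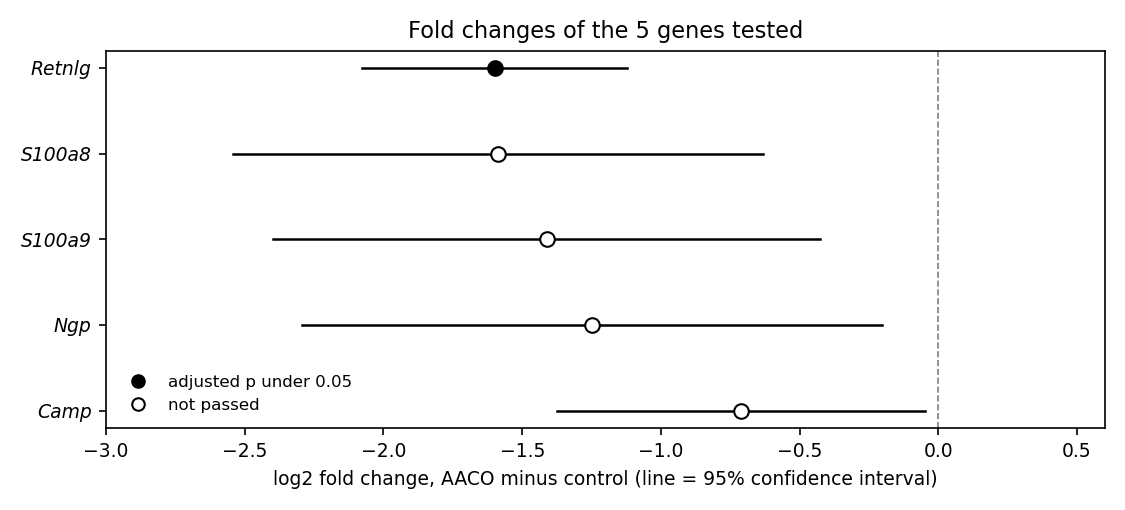
Log2 fold change of AACO minus control for the 5 genes tested, with 95% confidence intervals from limma (3 arrays per group). Each interval lies below 0, and Retnlg, the filled symbol, is the one with an adjusted p under 0.05. The intervals are not adjusted for the 17536 genes tested.

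Without adjustment all 5 had p under 0.05 and were lower, as were 12.9% of all genes tested. At least 2-fold lower were 4 of the 5, and 2.38% of all genes. Both numbers are set by the same contrast and add nothing to the counts above.

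The genes whose values over the 6 arrays lay nearest to the mean profile of S100a8 and S100a9 included none from the neutrophil lists below. Likeness was measured as the root-mean-square distance between profiles centred on their own means, in log2 units over 6 arrays. The nearest named genes were Rcan1, a calcineurin regulator (0.21), Cplx1, a complexin of vesicle release (0.21), Gch1, the first enzyme of tetrahydrobiopterin synthesis (0.23), F2rl1, a protease-activated receptor (0.23), and Tbx15, a T-box transcription factor (0.24). Of these Rcan1 (log2 -1.39 ± 0.27 SE, adjusted p = 0.0286) and Gch1 (-1.61 ± 0.32, adjusted p = 0.0312) fell, while Cplx1 (-1.42, adjusted p = 0.103), F2rl1 (-1.45, adjusted p = 0.0761) and Tbx15 (-1.57, adjusted p = 0.0755, well above background on 1 of 3 AACO arrays) did not pass. Among the members, Retnlg was 0.32 away, number 33 of all genes in nearness, Camp was 0.60 away (number 633) and Ngp 0.79 away (number 3241). S100a8 and S100a9 had like profiles (each 0.067 from their mean), with AACO replicate 3 near the controls, while Camp was nearly flat over the AACO arrays. Since S100a8 and S100a9 set the reference, their distance from it cannot be set beside those of the other genes.

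Other lists of neutrophil genes also held genes that fell, where 4.94% of all genes fell. Of 19 further granule genes on the array 8 were tested, 1 fell and 0 rose, with a median of -0.39. Pglyrp1, a granule protein that binds bacterial cell walls, fell by 0.47 ± 0.10 (SE, adjusted p = 0.037), and Lyz2, the lysozyme gene shared with macrophages, did not pass (-0.81, adjusted p = 0.0766). The other 11, including Elane, Prtn3 and Ctsg, the serine proteases of primary granules, and Mmp8, Mmp9 and the defensins, did not reach the filter. Elane, Mmp8 and Mmp9 were well above background on 0 of 6 arrays. Prtn3 and Ctsg were each so on 0 of 3 AACO arrays and 1 of 3 control arrays. Bpi, named with its values known, was so on 1 of 3 AACO arrays and 0 of 3 control arrays. Of 17 receptors and adhesion genes 9 were tested and 2 fell, with a median of -0.61: C5ar1, the complement C5a receptor gene (-0.97 ± 0.15, adjusted p = 0.0165), and Selplg, the selectin ligand gene (-0.79 ± 0.14, adjusted p = 0.0222). Both are shared with monocytes. Of the 9 tested, 8 were lower with AACO. Il1r2, chosen after its values were seen, did not pass (-1.50, adjusted p = 0.0639). It was well above background on 2 of 3 AACO arrays and 3 of 3 control arrays. The interleukin-8 receptor gene Cxcr2, also chosen after its values were seen, marks neutrophils more closely. Cxcr2 was too dim to be tested, being well above background on 1 of 3 AACO arrays and 0 of 3 control arrays.

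The phagocyte oxidase, which feeds Mpo with hydrogen peroxide, had 5 of 6 genes tested and 2 that fell (median -0.15). These were Cybb, its catalytic subunit gene (-1.01 ± 0.20, adjusted p = 0.0299), and Ncf4, a cytosolic subunit gene (-0.73 ± 0.16, adjusted p = 0.0387). Of 11 growth factors and attractants 5 were tested, 1 fell and 1 rose (median -0.51). The chemokine gene Cxcl2 fell (-2.41 ± 0.39, adjusted p = 0.0192), with a size that is uncertain since it was well above background on 1 of 3 AACO arrays and 3 of 3 control arrays, and the cytokine gene Tnf rose (0.65 ± 0.13, adjusted p = 0.0334). Csf3, which encodes the ligand of the Csf3r receptor and was chosen after its values were seen, did not pass (0.23, adjusted p = 0.396). In the resistin family the 3 relatives of Retnlg, which are Retn, Retnla and Retnlb, did not reach the filter.

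Among transcription factors of granulocyte development 4 of 8 were tested and 2 fell, with a median of -0.59. Cebpd stood at 0.76, 1.56 and 1.02 on AACO replicates 1, 2 and 3, against 2.12, 2.69 and 2.77 on control replicates 1, 2 and 3, a change of -1.41 ± 0.26 (SE, adjusted p = 0.0256). Cebpb changed by -1.003 ± 0.19 (adjusted p = 0.0292). Both encode C/EBP proteins, which are made in many cell types including heart muscle and fibroblasts. Cebpa, Cebpe and Gfi1, which act in granulocyte precursors and are named here with their values known, were too dim to be tested. Gfi1 was well above background on 2 of 3 AACO arrays and 0 of 3 control arrays, and Cebpa and Cebpe on 0 of 3 in each group. Myb, also in the list, was not on the array.

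S100a8 and S100a9 belong to a family of small calcium-binding proteins. Of 15 genes in that list, the receptor gene Ager included, 11 were tested, 1 fell and 0 rose, and the median was 0.13. S100a10, the annexin A2 partner, fell by 0.49 ± 0.12 (SE, adjusted p = 0.0473), and S100a11 did not pass (-0.40, adjusted p = 0.069). S100b, a gene of glial and nerve sheath cells, and S100a4, of fibroblasts and leukocytes, both chosen after their values were seen, were higher and did not pass (1.62, adjusted p = 0.111, and 0.82, adjusted p = 0.105). The difference between these genes and S100a8 or S100a9 was not tested.

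**Figure D3:**
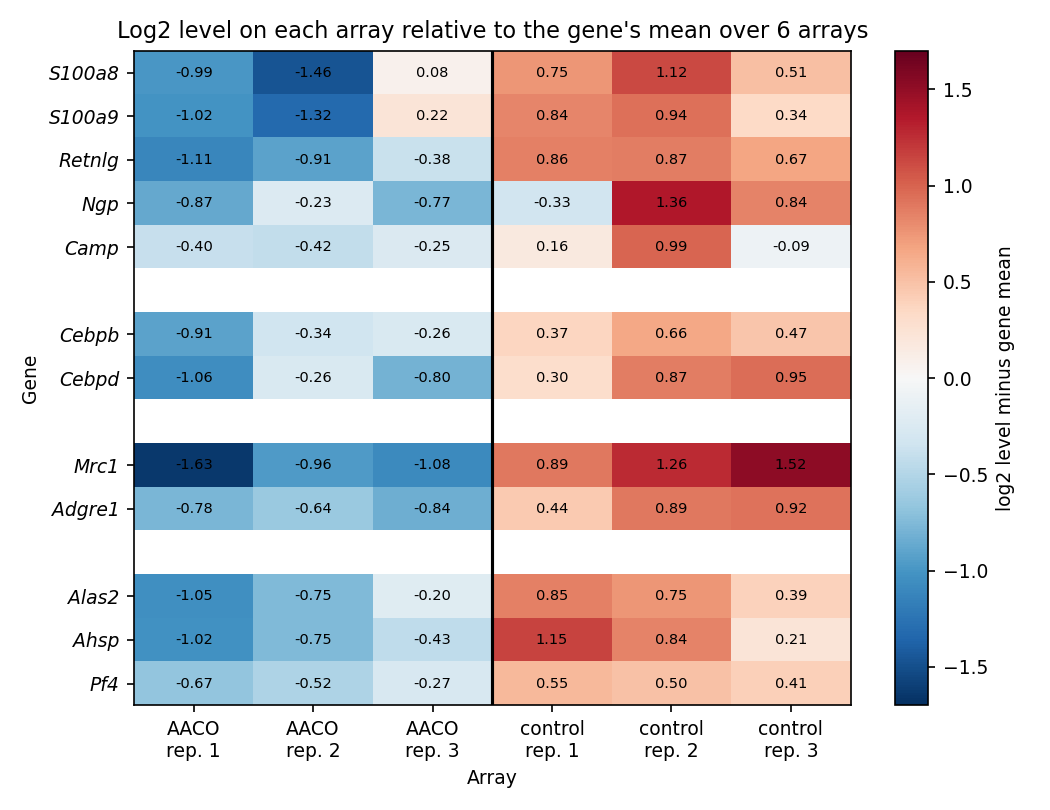
Log2 level of each gene on each array minus that gene's mean over the 6 arrays, for the 5 genes tested and for Cebpb, Cebpd, macrophage, red cell and platelet transcripts. S100a8 and S100a9 stand at 0.08 and 0.22 on AACO replicate 3, between the other AACO arrays and the control arrays. Alas2, Ahsp and Pf4 are also highest on AACO replicate 3 among the AACO arrays. The macrophage, red cell and platelet transcripts shown are ones that fell, and other markers of these cells did not pass.

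Macrophage, red cell and platelet markers also held genes that fell, and 0 that rose, where 4.94% of all genes fell and 6.32% rose. Of 12 macrophage markers 9 fell and 0 rose (median -1.14), among them Mrc1 (-2.45 ± 0.23, adjusted p = 0.00697, well above background on 2 of 3 AACO arrays) and Adgre1 (-1.50 ± 0.16, adjusted p = 0.0083). Csf1r (0.04, adjusted p = 0.901) and Aif1 (-0.07, adjusted p = 0.821), named with their values known, did not pass. The summed level of the 12 macrophage markers was 1487% to 1610% of the 75th percentile on the AACO arrays, against 2488% to 3722% on the control arrays. Of 7 red cell genes on the array 6 were tested and 3 fell (median -0.62). First by p were Alas2, the haem synthesis enzyme gene of red cell precursors (-1.33 ± 0.24, adjusted p = 0.0243), and Ahsp, the haemoglobin chaperone gene (-1.47 ± 0.27, adjusted p = 0.0252). The globin gene Hbb-b1 also fell (-0.88, adjusted p = 0.0377). Hbb (0.05, adjusted p = 0.891), Hba-a1 (-0.24, adjusted p = 0.285) and Slc4a1 (-0.37, adjusted p = 0.496) did not pass. These further genes are named with their values known. Hba-a2 was well above background on 3 of 3 arrays in each group but was not tested under that name. The summed level of the 6 genes tested overlapped, at 22282% to 27682% with AACO, against 27401% to 35464% in control. Of 5 platelet genes 1 fell, Pf4 (-0.97 ± 0.13, adjusted p = 0.0119), while Gp5 did not pass (-0.51, adjusted p = 0.13). Gp1bb (-0.06, adjusted p = 0.771) and Gp9, which was higher (0.33, adjusted p = 0.283), are named with their values known and did not pass. The summed level of the 5 platelet genes, mostly that of Pf4 and Gp1bb, was 226% to 246% with AACO, against 292% to 334% in control. The summed level of the 5 neutrophil genes was 37.4% to 92.3% with AACO, against 116% to 175% in control. The part that blood content or macrophage number had in the neutrophil values was not tested.

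Other cell types gave little. Of 7 T cell genes tested 1 fell, Cd4 (-1.05 ± 0.17, adjusted p = 0.0189), which rat macrophages also make, and Cd8a did not pass (0.51, adjusted p = 0.4, with 0 of 3 control arrays well above background). Of 4 mast cell and eosinophil genes tested 0 passed, with Kit at 0.68 (adjusted p = 0.0761) and Tpsab1 at -0.25 (adjusted p = 0.365) nearest. None of the 6 B cell genes reached the filter. Of 4 atrial genes 0 passed, with Myl7 at 5.59 (adjusted p = 0.0954) and Sln at 2.51 (adjusted p = 0.159).

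**Figure D4:**
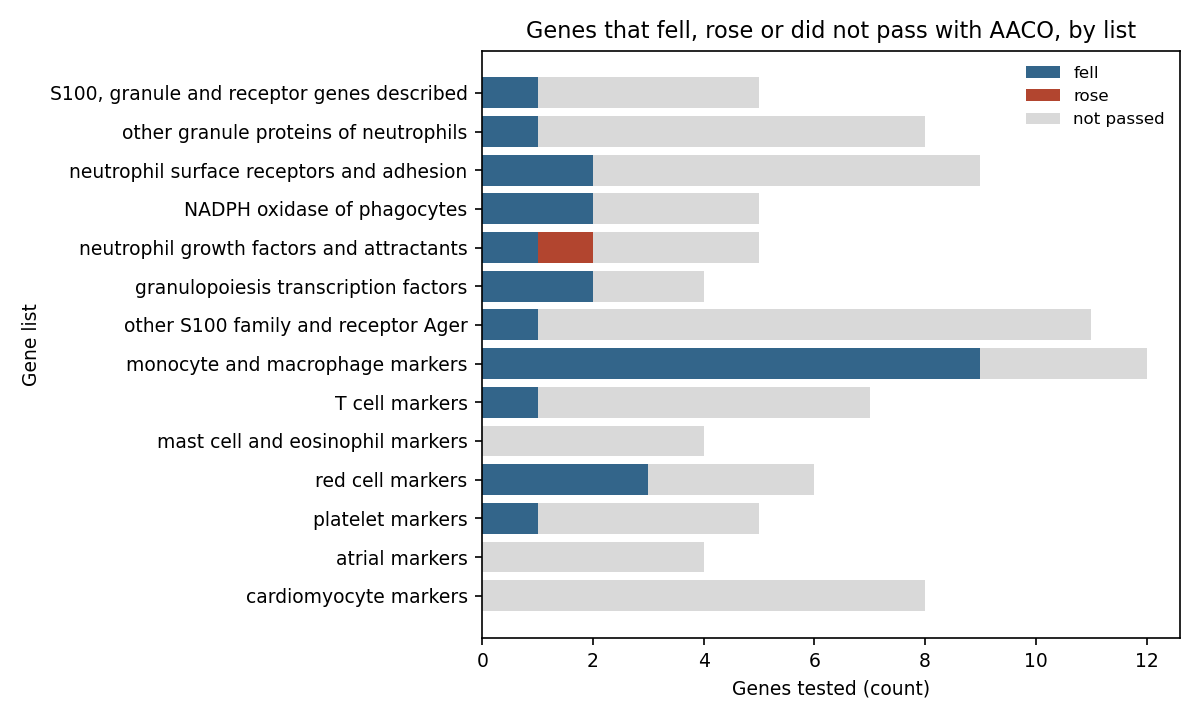
Number of genes tested in each list, split into those that fell, rose or did not pass at an adjusted p under 0.05 with AACO. The macrophage list, with 9 of 12, has more falls than the 5 genes described here, with 1 of 5.

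With the mean of Myl7 and Sln as a covariate, Myl4 and Nppa not included, the neutrophil genes stood closer to 0 in 4 of 5 cases. The log2 fold change was -0.49 for S100a8 (adjusted p = 0.465), -0.27 for S100a9 (adjusted p = 0.682), -0.54 for Camp (adjusted p = 0.677) and -1.16 for Retnlg (adjusted p = 0.169), while that of Ngp was -1.66 (adjusted p = 0.41). In that fit 0 of the 17536 genes passed in limma, 2276 had an unadjusted p under 0.05, and the covariate was high on AACO replicates 1 and 2. How far the values of S100a8 and S100a9 go with treatment or with these 2 arrays cannot be told apart.

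**Figure D5:**
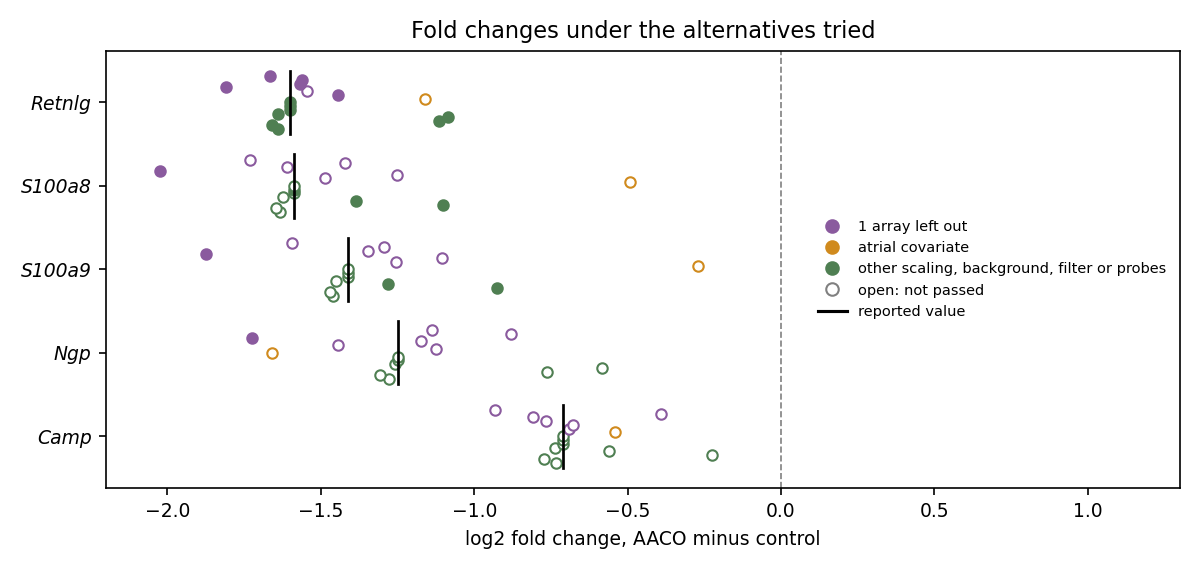
Log2 fold change of AACO minus control for the 5 genes tested under each of the alternatives, filled where the adjusted p was under 0.05 and open where it was not, with the reported value as a line. All points lie below 0. Retnlg is filled in 13 of 15 alternatives, S100a8 in 4, S100a9 in 3, Ngp in 1 of 14 and Camp in 0.

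Once scaled, S100a9 and Retnlg were lowest on AACO replicates 1 and 2, as were S100a8, Camp and the dim Mpo. The 300-base windows around the RefSeq start sites (GRCr8, 250 bases before and 50 after) were read for 2 motifs on both strands. These were TTNNGCAA for C/EBP proteins and GAGGAA for PU.1, the master factor of myeloid cells, and the motifs do not overlap each other in these windows. Windows were found for 7 of the 8 genes, and those of S100a9, at chr2:178490573-178490872, and Retnlg, at chr11:65395590-65395889, both on the minus strand, are printed with motif letters in capitals.
S100a9 promoter: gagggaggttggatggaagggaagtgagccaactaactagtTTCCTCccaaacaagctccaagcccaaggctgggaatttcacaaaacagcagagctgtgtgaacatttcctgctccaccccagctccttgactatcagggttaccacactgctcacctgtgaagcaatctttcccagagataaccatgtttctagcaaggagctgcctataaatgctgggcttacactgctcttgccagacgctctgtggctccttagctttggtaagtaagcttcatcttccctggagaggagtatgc
Retnlg promoter: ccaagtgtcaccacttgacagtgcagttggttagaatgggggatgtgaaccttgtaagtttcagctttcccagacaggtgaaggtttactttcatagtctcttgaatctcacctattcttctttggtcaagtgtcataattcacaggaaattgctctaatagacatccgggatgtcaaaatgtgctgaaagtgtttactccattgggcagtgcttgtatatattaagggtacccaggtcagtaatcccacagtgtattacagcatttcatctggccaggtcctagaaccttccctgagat
The S100a9 window held 1 match to the PU.1 letters, read on the opposite strand, and the Retnlg window held neither motif. Among the 7 windows 1 held the C/EBP letters (Ngp, with 2 matches) and 3 held the PU.1 letters (S100a9, Csf3r and Mpo). Over all 33469 windows of this length the shares were 10.6% and 27.6%. A match describes these letters and is no binding site.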

How the data were processed

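Whole heart RNA of 6 samples was labelled with Cy3 (0.2 ug RNA each) and read on 1-colour Agilent arrays. Per the file headers, the deposited intensity is the processed signal of Agilent Feature Extraction 10.7.1.1, background-subtracted and not scaled between arrays. The authors' deposited series matrix holds log2 values that share 1 median of 6.7708673, whose normalization is not stated; they followed the scanner's log2 signals (r of 0.998 or more per array, so log2 scale, not centred by gene) and were used as an alternative. Control spots and outlier spots were left out, and the spots of a probe were averaged as log2 values. The 75th percentile of each array's non-control spots was subtracted. A probe counted as well above background unless most of its usable spots were not. Of 30357 probes with values on all arrays, 20112 had 3 or more of 6 arrays well above background, and the brightest probe stood for each of 17536 genes. Genes were named through RefSeq accessions (GRCr8) for 18005 probes, otherwise as in the array files. AACO was compared with control by limma 3.58.1 in R 4.3.3 (lmFit and eBayes, two-sided, with Benjamini-Hochberg adjustment across genes), and rose or fell means an adjusted p under 0.05. The fit was tested on simulated data. The series text speaks of different donors for each experiment, without tying a sample to an animal, so p-values rest on the spread among the arrays given, and 3 arrays per group limit the precision.

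The members, lists and tests were chosen with earlier results of these data known. Named were the 8 members, the 2 genes of each list with the smallest p, and the 5 genes nearest in profile to S100a8 and S100a9, with others marked. Promoter windows came from RefSeq (GRCr8), and protein sequences were not used here.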

Additional observations from a re-analysis of the deposited data

How the results depend on the processing

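The 5 neutrophil genes tested were lower with AACO in each of the 15 alternatives that gave a value (14 for Ngp). The number that fell, 1 in the reported fit, was 3 with no scaling, 3 with normexp background correction, 2 among genes above background on all 6 arrays and 0 with the atrial covariate, and ran from 0 to 3 when 1 array was left out. It was 0 without AACO replicate 2, 2 without control replicate 1 and 3 without AACO replicate 3. Over all genes, 5493 rose and 232 fell with no scaling, 1503 fell with normexp and 1401 with no filter. With the atrial covariate 0 rose and 0 fell in limma, where 2276 genes had an unadjusted p under 0.05. Leaving out 1 array gave 108 to 1225 rises and 148 to 937 falls, the fewest without AACO replicate 2 and the most without AACO replicate 3. The counts moved by over 1.5 times without AACO replicates 1 or 2 or control replicates 2 or 3 (rises 179, 108, 713 and 322; falls 227, 148, 496 and 304), and without control replicate 1 for rises alone (737). The cause of these moves was not tested. The percentile over probe means was an alternative chosen after seeing the data. Slide or scan as a block could not be run, since no slide held both groups. No paired analysis was possible because the labels give the groups no shared replicate numbers. Signal over background limits Ngp, Mpo, Ltf and Csf3r.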
